A study of Mus musculus with 36 samples.

Results

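Intraepithelial lymphocyte (IEL) preparations were compared with lamina propria lymphocyte (LPL) preparations of the mouse small intestine by RNA sequencing. The members are the 4 IEL and the 4 LPL libraries, 8 of the 36 samples of the series, and every gene with enough reads was compared. Each preparation had 2 libraries from mice that carried the long noncoding RNA lnc13 (WT) and 2 from mice that lacked it (KO), labelled as biological replicates 1 and 2. All mice were on a DQ8 background and had been challenged with gluten, in the WT as in the KO groups, and the 4 groups were lnc13-WT-DQ8 IEL, lnc13-KO-DQ8 IEL, lnc13-WT-DQ8 LPL and lnc13-KO-DQ8 LPL. Age, sex, the gluten dose, the number of mice behind a library and how DQ8 was introduced are not given in the sources used here, so p-values measure the spread between these libraries. DQ8 is a human MHC class II molecule that presents gluten peptides in coeliac disease. Genotype entered the fit as a covariate. No value of lnc13 itself was analysed here, so the genotype labels were not checked by it. Reads in genes numbered 10186522 to 12898125 per library.

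Intraepithelial lymphocytes sit between the epithelial cells of the villus, and most are CD8 T cells of the alpha beta or gamma delta type with a cytotoxic programme. The integrin CD103, made of Itgae and Itgb7, holds them to E-cadherin on the epithelium. The lamina propria beneath holds IgA plasma cells, CD4 T cells, macrophages, dendritic cells, eosinophils, stroma and vessels, and it surrounds the crypts. Paneth cells, stem cells and dividing progenitors lie in the crypts, and mature absorptive enterocytes lie on the villus. To obtain IEL the epithelium is commonly shaken off the tissue, and LPL are then commonly released by digestion of what is left, though the labels do not describe how these preparations were made.

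Levels are given as CPM, the usual unit of read counts scaled to library size, here the reads in tested genes after TMM scaling, and CPM are not divided by gene length. Where the 4 libraries of a preparation are listed, the order is WT replicate 1, WT replicate 2, KO replicate 1 and KO replicate 2. Values after ± are the SD over the 4 libraries of a preparation (n = 4). Differences are log2 of IEL over LPL from edgeR with their SE, and a gene was called when its Benjamini-Hochberg adjusted p over all 12950 genes tested was under 0.05. In bulk RNA, fewer cells of a type and less RNA per cell cannot be told apart, and a gene that takes many reads in one preparation lowers the share left for others.

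Preparation was the main axis of variation. The first principal component held 66.0% of the variance and separated the 4 IEL from the 4 LPL libraries, and the second held 18.7%. WT LPL replicate 1 stood apart on the second component, at -77.5 where the other 7 libraries lay between -25.3 and 33.1. It was the highest LPL library for 16 of 16 CD8 and intraepithelial T cell genes, 10 of 10 B cell genes and 6 of 6 macrophage genes tested. Each immune list below is therefore given with and without it, and other libraries are named where leaving 1 out moved a list's count by over 1.5 times. In IEL, libraries resembled those of the same number in the other genotype. The correlation of log2 CPM across genes was 0.982 between the replicate 1 libraries of IEL and 0.979 between the replicate 2 libraries, against 0.960 and 0.971 between replicates 1 and 2 of WT and of KO IEL. In LPL the replicate 2 libraries correlated at 0.985, while WT LPL replicate 1 correlated with KO LPL replicate 1 at 0.928, less than KO LPL replicate 1 did with the replicate 2 libraries (0.966 each). Mitochondrially encoded genes took 17.2% to 22.3% of reads in IEL libraries, and 5.65% to 24.1% in LPL libraries, with KO LPL replicate 1 highest. All 13 such genes were tested, 0 were called by edgeR or DESeq2 and 0 had an unadjusted p under 0.05, and their median log2 difference was 0.76. That count rested on KO LPL replicate 1, without which edgeR gave 12 higher and 0 lower of 13, median 1.70.

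By edgeR, 4033 genes differed between the preparations, 31.1% of those tested. Of these, 2033 were higher in IEL (15.7%) and 2000 were lower (15.4%), and the median log2 difference over all genes tested was -0.05. The 4 IEL libraries lay wholly on one side of the 4 LPL libraries for 4712 genes (36.4%), and 44.4% of genes had an unadjusted p under 0.05. These shares are the background for the list counts of this fit below. The filter let a gene be tested through the reads of either preparation alone. For genes nearly unread in the other preparation, a call and its direction were thus partly set by the filter. Other fits, such as DESeq2 or those that leave out 1 library, called other shares of all genes. List counts from such fits were not set against the shares of those fits. The total dropped to 2328 if WT IEL replicate 2 was left out, to 2430 for KO LPL replicate 1, to 2490 for KO IEL replicate 2 and to 2621 for KO IEL replicate 1, while 2031 genes were called in all of the 8 such fits.

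**Figure D1:**
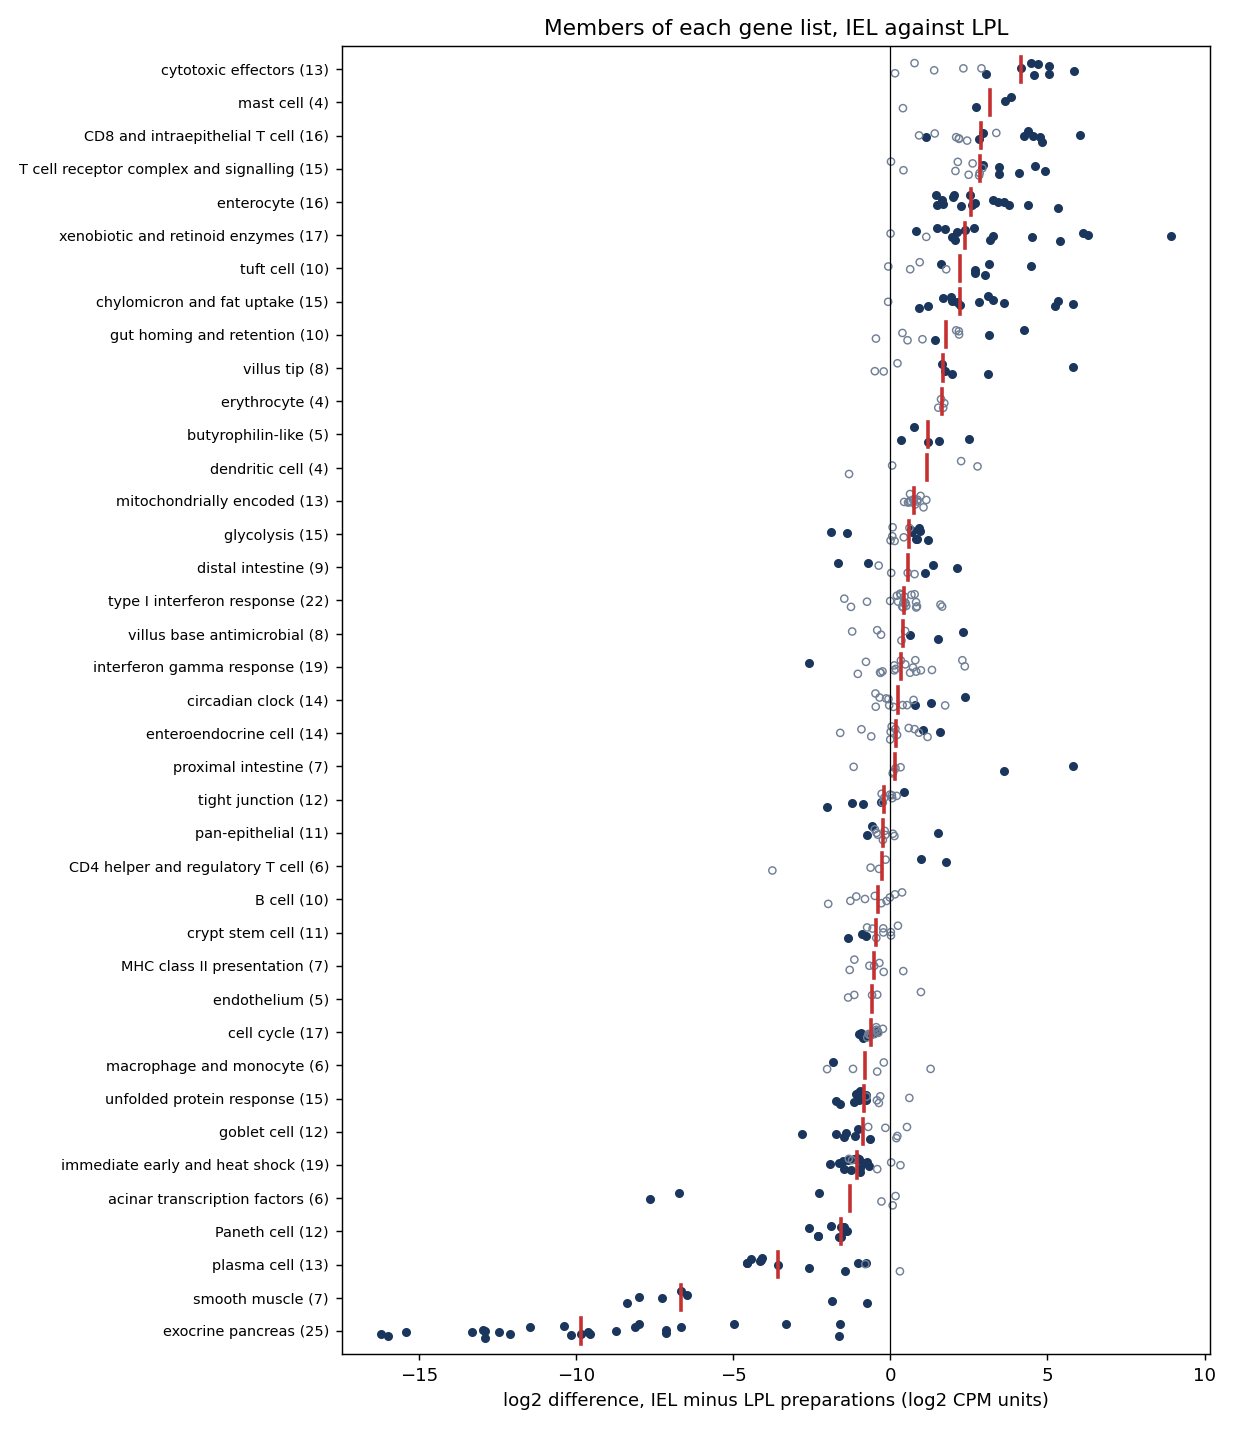
Log2 difference of IEL over LPL preparations (x axis, log2 CPM units) for the tested members of each gene list with at least 4 tested members; the number in brackets is how many were tested, filled points passed the test, open points did not, and red bars are list medians. Genes without a read in IEL are drawn at their fitted values, which are no bounds. Exocrine pancreas, smooth muscle and plasma cell genes lie at the low end (medians -9.84, -6.65 and -3.58) and cytotoxic effector genes at the high end (4.16).

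The labels were first read against defining markers. Epcam, the surface marker of all intestinal epithelium (gene ID 17075, chromosome 17, 87635979 to 87651127), was abundant and did not pass the test. Its levels were 1222, 1026, 1208 and 1151 CPM in the IEL libraries and 1031, 1368, 1371 and 1369 CPM in the LPL libraries (log2 -0.16, SE 0.14, adjusted p = 0.431). Epithelial transcripts were thus abundant in both preparations, with WT LPL replicate 1 the lowest LPL library. Cd3e, a signalling chain of the T cell receptor complex (gene ID 12501, chromosome 9, 44998735 to 45009663), was 28.1, 84.2, 31.9 and 58.6 CPM in the IEL libraries and 6.67, 1.93, 0.383 and 1.06 CPM in the LPL libraries. Every IEL library lay above every LPL library (log2 4.62, SE 0.69, adjusted p = 0.0027). WT LPL replicate 1 was the highest LPL library, and the other 3 held at most 1.93 CPM, so defining T cell transcripts were scarce in the preparations labelled LPL. Jchain, which joins the IgA dimer and marks plasma cells (gene ID 16069, chromosome 5, 88519809 to 88527897), was 101, 178.998, 60.9 and 54.1 CPM in the IEL libraries and 5574, 487, 2329 and 653 CPM in the LPL libraries, with no overlap (log2 -4.57, SE 0.79, adjusted p = 0.00491). Markers of B cells (Cd79a), macrophages (Csf1r) and endothelium (Pecam1) did not pass the test, and each was highest in WT LPL replicate 1, at 61.8, 33.4 and 20.4 CPM.

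T cell genes were higher in the IEL preparations. Of 15 tested genes of the T cell receptor complex and its signalling, 6 rose and 0 fell, and all 15 were higher by sign (median 2.84). Those that rose were Cd3e, Cd3d and Cd3g of the receptor complex, the kinases Lck and Zap70, and the adaptor Skap1. Cd3g was 96.5 ± 57.6 CPM in IEL and 4.19 ± 6.53 CPM in LPL (log2 4.93, SE 1.01, adjusted p = 0.0097), and Lck, which starts receptor signalling, was 69.9 ± 41.8 CPM in IEL and 8.16 ± 11.8 CPM in LPL (log2 3.46, SE 0.97, adjusted p = 0.0308). Leaving out WT LPL replicate 1 gave 11 higher and 0 lower of 15, median 4.08. The count was 2 without WT IEL replicate 2, KO LPL replicate 1 or KO LPL replicate 2 and 3 without KO IEL replicate 2, and DESeq2 called 10. Cd2, Cd5 and Cd6, costimulatory receptors that conventional T cells carry, did not pass. Cd6 was 1.41, 37.2, 0.431 and 18.8 CPM in the IEL libraries and 13.8, 1.72, 0 and 2.04 CPM in the LPL libraries. The replicate 2 libraries of IEL held it and the replicate 1 libraries nearly lacked it, in both genotypes. Bcl11b, a T lineage factor, was 62.5 ± 20.3 CPM in IEL and 60.2 ± 12.7 CPM in LPL and did not pass (log2 0.03, SE 0.23, adjusted p = 0.942).

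The constant segments of the receptors were chosen after their values were seen. Trdc, the delta constant gene, was 24.6, 51.6, 27.7 and 33.02 CPM in the IEL libraries and 2.03, 0.550, 0 and 0.659 CPM in the LPL libraries (log2 5.49, SE 0.66, adjusted p = 0.00105). Trac, the alpha constant gene, was 12.1, 51.5, 8.83 and 32.6 CPM in the IEL libraries and 11.7, 1.99, 0 and 1.25 CPM in the LPL libraries (log2 3.36, SE 1.04, adjusted p = 0.0424). Trdc did not overlap between the preparations, whereas Trac did, because WT LPL replicate 1 lay between the replicate 1 libraries of IEL. Trbc1, a beta constant gene, passed (log2 3.17, SE 1.01, adjusted p = 0.0473) and Trbc2, the other, did not (log2 3.17, SE 1.10, adjusted p = 0.0613). In both genotypes the replicate 2 library of IEL held more of Trac than the replicate 1 library by a wider margin than of Trdc.

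Members of the list for CD8 and intraepithelial T cells were higher in IEL by sign in 16 of 16 cases and passed in 9 (median 2.88). Cd7, a surface receptor of intraepithelial T cells (gene ID 12516, chromosome 11, 121036747 to 121039478), had the largest log2 difference among the tested members of the T cell lists. Its levels were 89.2, 194, 119.7 and 159 CPM in the IEL libraries and 8.70, 0.894, 0 and 0.923 CPM in the LPL libraries (log2 6.03, SE 0.91, adjusted p = 0.00275). Cd8a, the coreceptor chain that most IEL carry, was 73.1, 219, 79.3 and 171 CPM in the IEL libraries and 16.9, 3.51, 0.670 and 2.77 CPM in the LPL libraries (log2 4.82, SE 0.79, adjusted p = 0.00404). Cd8b1, the partner chain of conventional CD8 T cells, was 1.69, 29.9, 2.15 and 25.0 CPM in the IEL libraries and 5.41, 1.03, 0.192 and 0.725 CPM in the LPL libraries and did not pass (log2 3.38, SE 1.22, adjusted p = 0.068). The replicate 1 libraries of IEL were low in Cd8b1, below WT LPL replicate 1, while their Cd8a lay above every LPL library. Itgae, the alpha chain of CD103, was 76.9, 282, 93.0 and 188 CPM in the IEL libraries and 26.2, 5.43, 4.50 and 3.56 CPM in the LPL libraries with no overlap (log2 4.26, SE 0.70, adjusted p = 0.00395). Its partner Itgb7 overlapped, at 22.7, 105, 28.2 and 59.3 CPM in IEL and 44.9, 4.81, 6.22 and 5.47 in LPL (log2 2.10, SE 0.78, adjusted p = 0.0741). Xcl1, a chemokine that draws cross-presenting dendritic cells, was 12.2 ± 3.69 CPM in IEL and 0.626 ± 0.469 CPM in LPL (log2 4.39, SE 0.47, adjusted p = 0.000645). The inhibitory or coactivating receptors Cd160, Cd244a and Cd96 also rose (log2 4.78, 2.96 and 4.53), as did Jaml, a receptor of epithelial gamma delta T cells, by log2 1.15. In the fit that omitted WT LPL replicate 1 the counts were 16 higher and 0 lower of 16, median 4.04. Without WT IEL replicate 1, 15 were higher, and DESeq2 also called 15.

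Cytotoxic effector genes had the highest median of all lists shown in the plot of lists, 4.16, with 8 of 13 tested genes higher and 0 lower. Gzma, a granule protease (gene ID 14938, chromosome 13, 113093824 to 113100981), was 185, 866, 244 and 563 CPM in the IEL libraries and 41.8, 4.26, 0.192 and 3.69 CPM in the LPL libraries (log2 5.84, SE 1.17, adjusted p = 0.00905). Gzmb, the protease that starts death in target cells, was 108, 463, 152 and 316 CPM in the IEL libraries and 47.0, 2.20, 0.383 and 2.70 CPM in the LPL libraries (log2 5.04, SE 1.24, adjusted p = 0.0192). Both were at their highest in the replicate 2 libraries of IEL and both had 1 LPL library, WT replicate 1, far above the others. Ccl5, a chemokine stored by effector T cells, was 183 ± 143.3 CPM in IEL and 7.06 ± 9.22 CPM in LPL (log2 5.05, SE 0.98, adjusted p = 0.00786), and Ctsw, a protease of cytotoxic cells, was 50.5 ± 29.9 CPM in IEL and 2.74 ± 3.78 CPM in LPL (log2 4.47, SE 0.89, adjusted p = 0.00886). Fasl, the death ligand, the granule protein gene Nkg7 and the NK receptor genes Klrd1 and Klrb1c rose by log2 4.58, 4.16, 4.71 and 3.04. Prf1, which encodes perforin, was 1.69, 12.1, 3.98 and 7.72 CPM in the IEL libraries and 4.56, 0.688, 0.575 and 0.462 CPM in the LPL libraries and did not pass (log2 2.33, SE 0.85, adjusted p = 0.0713). Ifng was too low to be tested, at 0.564 to 7.59 CPM in IEL and 0.0659 to 1.18 CPM in LPL. When WT LPL replicate 1 was omitted, the list gave 12 higher and 0 lower of 13, median 5.44. Without WT IEL replicate 2 it gave 4 higher and 0 lower of 13, median 4.10, and 5 of 16 were higher without either KO LPL library.

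**Figure D2:**
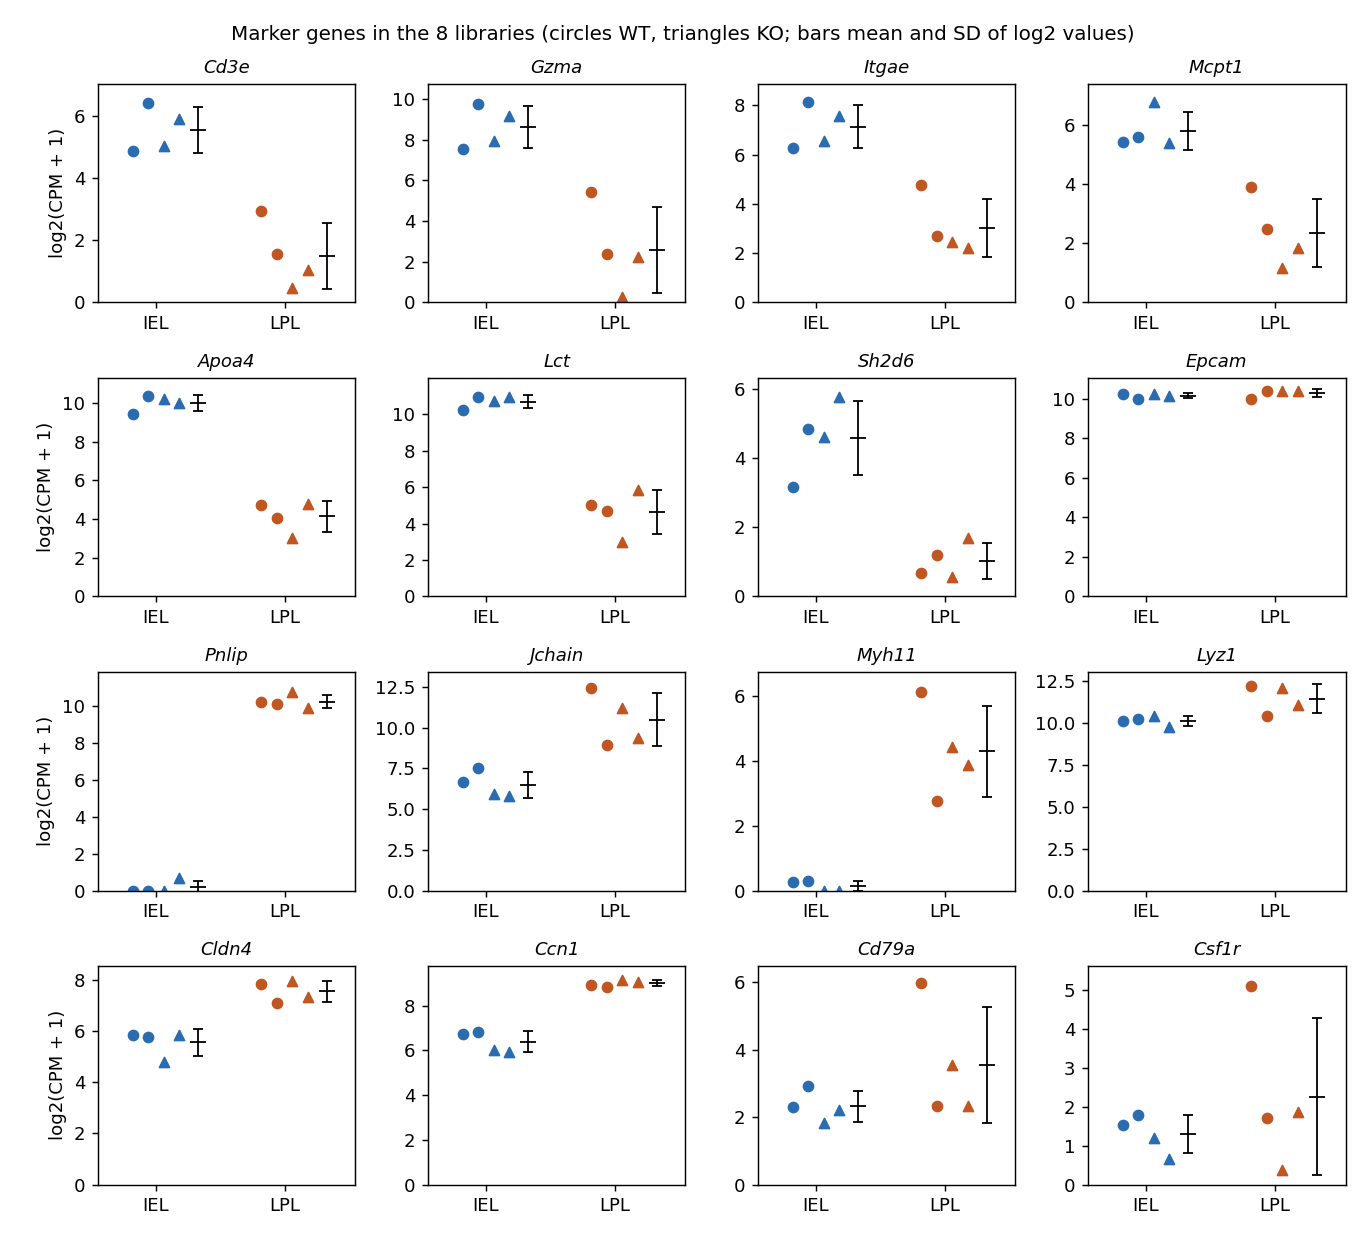
Levels of 16 marker genes as log2(CPM + 1) in each IEL and LPL library; circles are WT, triangles are KO, and the bars beside them are the mean and SD of the log2 values (n = 4). Cd3e, Gzma and Itgae lie higher in all 4 IEL libraries, Jchain, Myh11 and Pnlip in all 4 LPL libraries, and Cd79a and Csf1r are highest in 1 LPL library, WT replicate 1, at 61.8 and 33.4 CPM.

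Genes of CD4 helper and regulatory T cells were mostly too low to be tested. Of 13 genes 6 could be tested, and 2 of these were higher in IEL, in a fit where 15.7% of all genes tested rose. Among the 2 was Maf, a transcription factor that innate cells also express (log2 1.79, SE 0.23, adjusted p = 0.00154). Cd4 itself was 1.69, 6.84, 1.40 and 4.10 CPM in the IEL libraries and 20.1, 0.688, 1.92 and 1.52 CPM in the LPL libraries (log2 -0.35, SE 0.99, adjusted p = 0.802), and Ctla4, an inhibitory receptor, was 2.35, 28.1, 2.15 and 22.3 CPM in the IEL libraries and 80.3, 9.70, 10.3 and 8.77 CPM in the LPL libraries (log2 -0.62, SE 1.04, adjusted p = 0.666). Il22, a cytokine of type 3 lymphocytes, was 37.6, 1.31, 0.383 and 1.52 CPM in LPL and at most 1.17 CPM in IEL, and did not pass (log2 -3.75, SE 1.90, adjusted p = 0.165). The sign of this list changed without WT LPL replicate 1 (2 higher and 0 lower of 6, median 1.16) and without WT IEL replicate 1 (2 higher and 0 lower of 9, median 0.22), and 1 gene was lower without KO IEL replicate 2 or KO LPL replicate 1. Among gut homing and retention genes 3 of 10 rose, namely Itgae, the collagen-binding integrin Itga1 (log2 1.43, SE 0.28, adjusted p = 0.00836) and the chemokine receptor Cxcr3 (log2 3.14, SE 0.98, adjusted p = 0.0443). Itgae, Itgb7 and Ccr9 also stand in the list for CD8 and intraepithelial T cells. Ccr9, which guides T cells to the small intestine, was 12.8, 60.2, 16.6 and 41.3 CPM in the IEL libraries and 27.8, 3.51, 2.11 and 3.89 CPM in the LPL libraries (log2 2.18, SE 0.84, adjusted p = 0.0811). Without WT LPL replicate 1 the homing list gave 10 higher and 0 lower of 10, median 3.02, and without WT IEL replicate 1, 5 of 10 were higher, the count that DESeq2 also gave.

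Plasma cell genes were higher in the LPL preparations. Of 13 tested genes 11 fell in IEL and 0 rose, with a median of -3.58. Igha, the constant gene of IgA (gene ID 238447, chromosome 12, 113256204 to 113260236), was 597, 1059, 389 and 308 CPM in the IEL libraries and 30149, 3109, 12265 and 4121 CPM in the LPL libraries (log2 -4.44, SE 0.75, adjusted p = 0.00444), and Igkc, the kappa constant gene, followed it (log2 -4.54, SE 0.79, adjusted p = 0.00491). The LPL values of Igha spanned a wide range, highest in WT replicate 1 and next in KO replicate 1, yet the lowest LPL library lay above the highest IEL library. Immunoglobulin genes took 0.679% to 6.15% of reads in LPL and 0.060% to 0.195% in IEL. Mzb1, a chaperone of antibody assembly, was 1.49 ± 0.625 CPM in IEL and 27.2 ± 29.1 CPM in LPL (log2 -4.13, SE 0.79, adjusted p = 0.00754), and Derl3, of the machinery that clears misfolded proteins, was 0.869 ± 0.357 CPM in IEL and 15.5 ± 15.1 CPM in LPL (log2 -4.07, SE 0.82, adjusted p = 0.00911). Pou2af1, a B lineage coactivator, Tnfrsf13b, a receptor for survival factors, and Eaf2 fell (log2 -3.58, -2.58 and -4.12). Prdm1 and Irf4, factors that plasma cells share with effector T cells, did not pass (log2 0.31 and -0.79). Sdc1, Xbp1 and Txndc5 fell by less (log2 -0.78, -1.01 and -1.43), and secretory epithelium and pancreas use these genes too. Without WT LPL replicate 1 the list still gave 0 higher and 11 lower of 13, median -2.48. Pigr, the epithelial receptor that carries IgA into the lumen and was chosen after its values were seen, did not pass (5895 ± 551 CPM in IEL and 4474 ± 642 CPM in LPL, log2 0.40, SE 0.20, adjusted p = 0.158).

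By edgeR 0 of 10 tested B cell genes passed, with 1 at an unadjusted p under 0.05 and 1 called by DESeq2, and the sign of their median changed without WT LPL replicate 1. Cd79a, a signalling chain of the B cell receptor (gene ID 12518, chromosome 7, 24897497 to 24901858), was 3.95, 6.63, 2.58 and 3.62 CPM in the IEL libraries and 61.8, 4.06, 10.8 and 4.02 CPM in the LPL libraries. WT LPL replicate 1 was thus far above all others, and 2 of the other 3 LPL libraries lay within the range of the IEL libraries (log2 -1.97, SE 0.80, adjusted p = 0.0962). Cd22, an inhibitory receptor of B cells, was 4.52, 6.84, 3.88 and 4.59 CPM in the IEL libraries and 27.1, 0.894, 0.479 and 1.85 CPM in the LPL libraries, so that 1 LPL library lay above all others and the other 3 below every IEL library (log2 0.15, SE 1.08, adjusted p = 0.926). Over the list, 0 genes were higher and the median was -0.39 with WT LPL replicate 1, against 4 higher and 0 lower of 11, median 1.79 without it. Without WT IEL replicate 1 the list gave 0 higher and 0 lower of 11, median 0.29, and without WT LPL replicate 2 it gave 0 higher and 2 lower of 11, median -0.83. Genes of MHC class II presentation behaved likewise, with 0 of 7 called by edgeR or DESeq2, 0 at an unadjusted p under 0.05 and a median of -0.51, or 0 higher and 0 lower of 7, median 0.54 without that library. The class II median was 0.04 without KO LPL replicate 1. Cd74, the invariant chain of class II, was 90.4, 460.2, 49.6 and 249.6 CPM in the IEL libraries and 1232, 51.6, 713 and 53.8 CPM in the LPL libraries (log2 -1.29, SE 1.10, adjusted p = 0.39). Both LPL replicate 1 libraries were high and both LPL replicate 2 libraries low, while in IEL the replicate 2 libraries were the higher ones.

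Myeloid genes were sparse. Of 15 macrophage and monocyte genes 6 could be tested, and 1 passed, Cd14, a receptor for bacterial lipopolysaccharide, at 3.95, 3.95, 2.58 and 2.83 CPM in the IEL libraries and 19.1, 7.15, 15.0 and 5.41 CPM in the LPL libraries (log2 -1.81, SE 0.41, adjusted p = 0.0141). Csf1r, the growth factor receptor of macrophages, was 1.88, 2.46, 1.29 and 0.586 CPM in the IEL libraries and 33.4, 2.27, 0.287 and 2.64 CPM in the LPL libraries (log2 -2.01, SE 1.03, adjusted p = 0.168). The complement genes C1qa, C1qb and C1qc, which gut macrophages express at high levels, were not tested and were 23.2, 5.57 and 17.7 CPM in WT LPL replicate 1 and at most 1.31, 0.330 and 1.24 CPM in the other 7 libraries. The macrophage list without WT LPL replicate 1 gave 1 higher and 1 lower of 6, median 0.16. Of 4 tested dendritic cell genes 0 passed by edgeR, with 1 at an unadjusted p under 0.05 and 2 called by DESeq2. Itgax, which encodes CD11c and is carried by dendritic cells and by some IEL, was 17.4, 46.8, 20.4 and 23.0 CPM in the IEL libraries and 27.6, 1.10, 1.72 and 1.98 CPM in the LPL libraries (log2 2.26, SE 0.93, adjusted p = 0.0996). Without that library the dendritic list gave 2 higher and 0 lower of 4, median 3.02.

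Mast cell proteases rose in IEL. Mcpt1, the chymase of mucosal mast cells that enter the epithelium (gene ID 17224, chromosome 14, 56017964 to 56020391), was 42.0, 48.0, 109 and 41.4 CPM in the IEL libraries and 13.9, 4.61, 1.24 and 2.57 CPM in the LPL libraries (log2 3.64, SE 0.75, adjusted p = 0.00991), and KO IEL replicate 1 was the highest. Mcpt2, a second mucosal protease, was 29.0 ± 17.004 CPM in IEL and 2.22 ± 2.01 CPM in LPL (log2 3.83, SE 0.68, adjusted p = 0.00559), and Cpa3, a mast cell carboxypeptidase, was 2.42 ± 0.923 CPM in IEL and 0.397 ± 0.532 CPM in LPL (log2 2.72, SE 0.85, adjusted p = 0.0446). The connective tissue protease gene Cma1 had 0 to 0 CPM in IEL and at most 0.0659 CPM in LPL. Of 4 tested mast cell genes 3 rose, and Kit, which epithelial progenitors and pacemaker cells also express, did not pass (log2 0.41, SE 0.20, adjusted p = 0.152). Among eosinophil genes Siglecf was higher (8.92 ± 4.77 CPM in IEL and 0.962 ± 1.08 CPM in LPL, log2 3.38, SE 0.84, adjusted p = 0.0204) and Prg2 was lower (0.330 ± 0.158 CPM in IEL and 14.7 ± 13.4 CPM in LPL, log2 -5.45, SE 0.78, adjusted p = 0.00227). Siglecf is also a gene of tuft cells, Prg2 is also made by plasma cells, and Epx, the peroxidase specific to eosinophils, was at most 0.0977 CPM in all 8 libraries. Without WT LPL replicate 1 the mast cell list gave 4 higher and 0 lower of 4, median 4.16 and the eosinophil list 2 higher and 1 lower of 3, median 4.23. Of the 3 eosinophil genes 0 were higher without WT IEL replicate 2, KO LPL replicate 1 or KO LPL replicate 2.

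**Figure D3:**
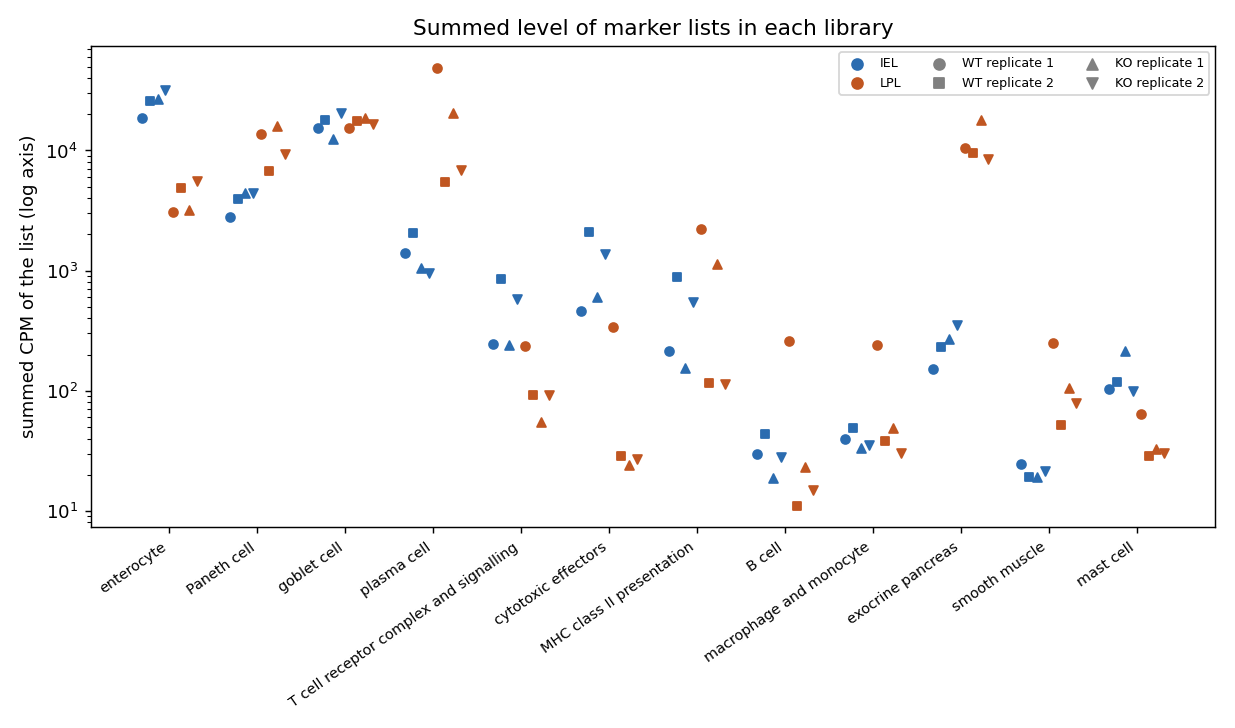
Summed CPM of 12 marker lists (x axis) in each of the 8 libraries, on a logarithmic y axis; blue is IEL, orange is LPL, and the symbol gives genotype and replicate. The exocrine pancreas sum is 150.2 to 349 CPM in IEL and 8523 to 17931 CPM in LPL, while the B cell sum is raised in WT LPL replicate 1, at 260.897 CPM.

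Smooth muscle genes were lower in IEL. All 7 tested members fell (median -6.65). Genes nearly unread in IEL, such as Myh11 and Des, could be tested through LPL alone, so this count and median were partly set by the filter. Myh11, the smooth muscle myosin (gene ID 17880, chromosome 16, 14194527 to 14292188), was 0.188, 0.214, 0 and 0 CPM in the IEL libraries and 68.2, 5.78, 20.4 and 13.5 CPM in the LPL libraries (log2 -7.98, SE 1.048, adjusted p = 0.00156). Des, which encodes desmin, had 1 read in IEL against 566 in LPL (a ratio of 430.2-fold, 95% exact interval 76.9 to 17019.7, counting error only), at 28.0, 1.93, 10.4 and 6.40 CPM in LPL. Acta2, Actg2, Myl9 and Tagln, of the contractile apparatus, fell (log2 -6.46, -6.65, -7.26 and -1.85). WT LPL replicate 1 was the highest and WT LPL replicate 2 the lowest for Myh11, Des, Acta2, Actg2 and Myl9, and without replicate 1 of WT LPL the list gave 0 higher and 7 lower of 7, median -5.38. None of 11 fibroblast genes reached the level for testing, and without WT LPL replicate 2, 1 gene did and was lower in IEL. Col3a1, a fibrillar collagen, was 18.5, 0.275, 3.16 and 0.857 CPM in LPL and at most 0.748 CPM in IEL. Of 5 tested endothelial genes 0 were called by edgeR or DESeq2 and 0 had an unadjusted p under 0.05, with Pecam1 at 5.83, 10.9, 6.57 and 8.01 CPM in the IEL libraries and 20.4, 0.688, 1.44 and 1.19 CPM in the LPL libraries (log2 0.98, SE 0.99, adjusted p = 0.473). The endothelial list gave 1 higher and 0 lower of 5, median -0.67 without WT LPL replicate 1, and 0 higher and 1 lower of 5, median -0.61 without WT IEL replicate 2. Of 4 tested erythrocyte genes 0 were called by edgeR or DESeq2 and 0 had an unadjusted p under 0.05, and Hba-a1 was 11.3, 58.6, 3.88 and 109 CPM in the IEL libraries and 45.6, 10.9, 1.72 and 10.1 CPM in the LPL libraries, highest in the replicate 2 libraries of IEL and in WT LPL replicate 1.

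Transcripts of the exocrine pancreas gave the steepest falls of the comparison. All 25 tested members of the list fell in IEL, and all 25 had no overlap (median -9.84, or -9.56 with the 5 genes that had no read in IEL set at their bound). Those 5 genes entered the test through LPL alone, so the count and the median were partly set by the filter. The genes of the list took 1.00% to 1.59% of reads in LPL, 0.015% to 0.032% in IEL and 0.008% to 0.046% in the 4 whole tissue libraries of the series. Cel, the bile salt activated lipase (gene ID 12613, chromosome 2, 28555819 to 28563403), was 793, 712, 1117 and 652 CPM in LPL and had no read in IEL, so that it was at least 10776-fold lower there (floor of 3 reads over the 4 libraries). Pnlip, the main lipase of pancreatic juice (gene ID 69060, chromosome 19, 58670365 to 58681799), was 1190.4, 1089.7, 1688 and 932 CPM in LPL and was read in IEL in 1 library, KO replicate 2, at 0.586 CPM (log2 -12.90, SE 0.64, adjusted p = 3.94e-05). The elastase gene Cela2a (gene ID 13706, chromosome 4, 141814954 to 141826005) showed the same, with 1177, 1027, 1727 and 966 CPM in LPL against 0, 0, 0 and 0.586 CPM in IEL (log2 -12.90, SE 0.63, adjusted p = 3.94e-05). The carboxypeptidase genes Cpb1 and Cpa1 fell (log2 -13.29 and -12.43). Ctrb1, a chymotrypsinogen gene, had 3 reads over the 4 IEL libraries and was higher in LPL by a ratio of reads of 8635-fold, 95% exact interval 2954 to 41872 (counting error only). The trypsinogens Prss2, Try4 and Try5 fell too, but they are near copies of each other and the authors' counting could split their reads. Try4 was 601, 548, 1258 and 426 CPM in LPL with no read in IEL.

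Not every gene of the list was missing from IEL. Pnliprp2, a lipase that intestinal cells also make, was 28.9, 72.1, 127 and 159.9 CPM in the IEL libraries and 166, 285, 251 and 359 CPM in the LPL libraries (log2 -1.62, SE 0.37, adjusted p = 0.0146), and Klk1, a kallikrein, was 81.0, 94.6, 70.5 and 104 CPM in the IEL libraries and 247, 236, 355 and 229.9 CPM in the LPL libraries (log2 -1.60, SE 0.18, adjusted p = 0.00086). Clps, which encodes colipase, was 23.8, 41.6, 41.2 and 58.6 CPM in IEL against 357, 305, 659 and 312 in LPL. KO LPL replicate 1 was the highest LPL library for 23 of the 25 tested members. Of the acinar transcription factors, Ptf1a was 1.01, 1.24, 1.44 and 0.923 CPM in LPL and had no read in IEL (at least 15.2-fold lower), and its partner Rbpjl was at least 28.5-fold lower. Bhlha15, a factor of secretory cells, was 5.56 ± 0.902 CPM in IEL and 26.7 ± 9.70 CPM in LPL (log2 -2.26, SE 0.30, adjusted p = 0.0017), while Nr5a2, Gata4 and Gata6, which intestinal epithelium shares, did not pass. No endocrine pancreas gene reached the level for testing, and Ins2 was 1.69, 0.206, 0 and 0 CPM in LPL. Outside the list, Pla2g1b, the pancreatic phospholipase, Serpini2, a serpin of the pancreas, and Pdia2, a pancreatic disulfide isomerase, fell with it. Pla2g1b was 23.6, 20.4, 34.4 and 16.2 CPM in LPL with no read in IEL, at least 311-fold lower. Reg2, a secreted lectin, was 113, 32.1, 296 and 7.32 CPM in LPL, which spans more than an order of magnitude (log2 -9.61, SE 1.67, adjusted p = 0.00503). Tff2, a trefoil peptide of stomach and Brunner glands, was 17.6, 14.1, 28.9 and 21.2 CPM in LPL and had no read in IEL (at least 269-fold lower). Clu and Chac1, a secreted chaperone and a glutathione-degrading enzyme of the stress response, fell (log2 -5.32 and -5.13). With the list removed before scaling, 4011 genes were called. The part that pancreatic cells or RNA in the LPL preparations had in the results for other genes was not tested.

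The promoter of Cela2a is shown because acinar enzyme genes moved together and PTF1, the acinar factor built on Ptf1a and Rbpjl, is known to bind an E-box beside an RBPJ type site. The sequence is from RefSeq, build GRCm38.p6, chr4:141825956-141826255, minus strand, from 250 bases before to 50 bases after the gene's start, and capitals mark CACCTG or TTTCCC on either strand.
Cela2a: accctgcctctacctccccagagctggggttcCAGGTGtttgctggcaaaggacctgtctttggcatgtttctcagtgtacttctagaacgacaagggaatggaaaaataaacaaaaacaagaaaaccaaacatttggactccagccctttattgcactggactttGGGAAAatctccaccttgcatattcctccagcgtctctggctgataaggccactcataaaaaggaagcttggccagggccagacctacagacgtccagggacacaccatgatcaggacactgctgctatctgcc
Promoter sequences were found for 21 of the 25 tested members. CACCTG or its reverse complement lay in 12 of these (57.1%), against 18.4% of 10038 promoters of tested genes. TTTCCC lay in 8 (38.1%) against 26.2%. Each run was counted alone, and whether both lay beside each other in a promoter was not tested. In Cela2a the marked runs lie far apart, so the capitals do not show a joint site of the kind that PTF1 binds. A match is a run of letters in the window and no evidence of binding.

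Absorptive enterocyte genes were higher in the IEL preparations throughout. All 16 tested members rose, with no overlap in any (median 2.58). Apoa1, an apolipoprotein of chylomicrons (gene ID 11806, chromosome 9, 46228630 to 46230469), was 2834, 3858, 4666 and 3878 CPM in the IEL libraries and 122, 90.8, 44.6 and 122 CPM in the LPL libraries (log2 5.33, SE 0.40, adjusted p = 0.000157). Lct, the lactase of the brush border (gene ID 226413, chromosome 1, 128284756 to 128328318), was 1185, 1947, 1664 and 1935 CPM in the IEL libraries and 31.5, 25.2, 6.89 and 56.4 CPM in the LPL libraries (log2 5.80, SE 0.63, adjusted p = 0.000693). Sis, which encodes sucrase-isomaltase, was 3285 ± 739 CPM in IEL and 565 ± 279 CPM in LPL (log2 2.54, SE 0.36, adjusted p = 0.00219), and the alkaline phosphatase gene Alpi was 969 ± 156 CPM in IEL and 203 ± 114 CPM in LPL (log2 2.25, SE 0.42, adjusted p = 0.00684). Treh, the trehalase, and Slc15a1, the peptide transporter, rose by log2 4.38 and 3.79. The peptidase genes Anpep, Dpp4, Enpep and Mep1a rose by log2 2.70, 2.02, 1.497 and 1.45. In LPL the replicate 2 libraries of both genotypes held more Sis than the replicate 1 libraries, at 671 and 911 against 316 and 364 CPM, and each remained below all IEL libraries.

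Promoters of Sis and Alpi are shown because enterocyte genes moved together and their known activators, CDX2, HNF1 and HNF4, recognise the letters in capitals: TTTATG for CDX2 and GTTAAT for HNF1 in Sis, and CAAAGTCCA for HNF4 in Alpi, on either strand. Both are from RefSeq, GRCm38.p6, at chr3:72967814-72968113 and chr1:87101557-87101856, both on the minus strand, with the same window as above.
Sis: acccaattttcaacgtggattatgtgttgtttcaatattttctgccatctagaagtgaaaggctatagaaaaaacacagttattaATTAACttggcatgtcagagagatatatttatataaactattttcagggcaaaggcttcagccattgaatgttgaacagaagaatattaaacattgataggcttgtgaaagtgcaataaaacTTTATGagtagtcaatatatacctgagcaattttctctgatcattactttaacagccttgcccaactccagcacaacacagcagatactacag
Alpi: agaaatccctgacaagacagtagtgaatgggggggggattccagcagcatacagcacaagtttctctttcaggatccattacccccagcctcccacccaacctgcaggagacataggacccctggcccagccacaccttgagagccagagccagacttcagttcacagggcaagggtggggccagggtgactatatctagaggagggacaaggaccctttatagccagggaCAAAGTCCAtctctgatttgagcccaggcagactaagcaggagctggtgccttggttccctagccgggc
Of 16 members 14 had a promoter sequence. TTTATG lay in 3 of them (21.4%, against 6.43% of all promoters of tested genes), GTTAAT in 2 (14.3%, against 4.29%) and CAAAGTCCA in 2 (14.3%, against 0.488%). The gene for CDX2 itself did not pass, at 166 ± 19.1 CPM in IEL and 156 ± 56.6 CPM in LPL (log2 0.09, SE 0.26, adjusted p = 0.817).

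Genes for nutrient uptake and detoxification were among those with the largest rises. Cyp2c29, a cytochrome P450 (gene ID 13095, chromosome 19, 39287044 to 39330713), was 29.4, 20.4, 34.4 and 45.2 CPM in IEL and had 3 reads over the 4 LPL libraries (a ratio of 564-fold, 95% exact interval 193 to 2739, counting error only). Cubn, the receptor for vitamin B12 bound to intrinsic factor, was 208, 336, 201 and 169 CPM in the IEL libraries and 2.62, 0.825, 1.053 and 2.24 CPM in the LPL libraries (log2 7.05, SE 0.39, adjusted p = 6.35e-05). Enpp7, the alkaline sphingomyelinase, was 186 ± 103 CPM in IEL and 1.71 ± 1.498 CPM in LPL (log2 6.63, SE 0.67, adjusted p = 0.000506). The transporters Slc5a12 for lactate, Slc7a15 and Slc5a4b rose by log2 6.54, 6.05 and 5.84. Acot12, an acetyl-CoA hydrolase, and Bst1, an ectoenzyme that handles NAD, rose by log2 6.40 and 6.30. Of 17 xenobiotic and retinoid enzyme genes 15 rose (median 2.38). Cyp3a11, a drug-metabolising P450, was 302, 305, 449 and 431 CPM in the IEL libraries and 4.05, 4.33, 1.15 and 11.4 CPM in the LPL libraries (log2 6.12, SE 0.55, adjusted p = 0.000335), and Cyp2b10 was 259 ± 54.8 CPM in IEL and 3.20 ± 2.51 CPM in LPL (log2 6.30, SE 0.61, adjusted p = 0.000452). Cyp1a1, the target of the aryl hydrocarbon receptor, was 18.7, 30.9, 29.3 and 19.0 CPM in the IEL libraries and 1.35, 0.275, 0.287 and 0.462 CPM in the LPL libraries (log2 5.39, SE 0.50, adjusted p = 0.000363). Aldh1a1, which makes retinoic acid, rose by log2 3.18, and Isx, the repressor of carotenoid uptake, did not pass (log2 0.01, SE 0.19, adjusted p = 0.968). The P450 families hold close copies whose reads the counting could split.

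Genes for fat absorption rose in 14 of 15 cases (median 2.21). This list shares Apoa1, Fabp1 and Fabp2 with the enterocyte list and Apoa4 with the villus tip list, so it is not separate from them. Apoa4, an apolipoprotein of the villus tip, was 696, 1317, 1178 and 1013 CPM in the IEL libraries and 25.6, 15.7, 7.09 and 26.0 CPM in the LPL libraries (log2 5.82, SE 0.48, adjusted p = 0.000242). Apoc3 was 174, 193, 218 and 203 CPM in the IEL libraries and 4.90, 4.54, 4.02 and 7.12 CPM in the LPL libraries (log2 5.25, SE 0.18, adjusted p = 2.11e-05), with little spread within either preparation. Apob, the scaffold of the chylomicron, and Mttp, which loads it with lipid, were 1879 ± 279.9 CPM in IEL and 261 ± 43.4 CPM in LPL and 2085 ± 359 CPM in IEL and 529 ± 119.5 CPM in LPL (log2 2.84 and 1.97). Mogat2 and Dgat2, which rebuild triglyceride, the fatty acid receptor gene Cd36 and the cholesterol transporter gene Npc1l1 rose by log2 2.21, 1.68, 3.12 and 1.93. Plin2, a coat protein of lipid droplets, did not pass (log2 -0.07, SE 0.15, adjusted p = 0.766).

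Position along the villus and along the gut was read from further lists, in a fit where 15.7% of all genes tested rose and 15.4% fell. Of 8 villus tip genes 5 rose (median 1.69), with Ada, adenosine deaminase, at 27.6 ± 7.26 CPM in IEL and 7.01 ± 2.42 CPM in LPL (log2 1.98, SE 0.23, adjusted p = 0.000895), while Klf4 and Egfr did not pass. The villus tip count was 3 without WT IEL replicate 2, either KO IEL library or either KO LPL library. Nt5e, which makes adenosine and is also carried by T cells, was 13.4, 36.9, 17.01 and 32.3 CPM in the IEL libraries and 12.9, 1.58, 0.0958 and 1.65 CPM in the LPL libraries (log2 3.10, SE 0.99, adjusted p = 0.0468). Among genes of the villus base, Reg3a, Il18 and Ccl25 rose. Il18, a cytokine of the epithelium, was 71.7, 78.3, 69.5 and 81.4 CPM in the IEL libraries and 29.1, 16.7, 37.3 and 23.9 CPM in the LPL libraries (log2 1.51, SE 0.22, adjusted p = 0.00223), and Ccl25, the ligand of CCR9, was 521 ± 52.0 CPM in IEL and 339.6 ± 70.2 CPM in LPL (log2 0.62, SE 0.15, adjusted p = 0.0196). Reg3b, an antimicrobial lectin, was 1946, 1172, 962 and 1929.6 CPM in the IEL libraries and 2158, 262, 6474 and 129 CPM in the LPL libraries and did not pass (log2 -0.41, SE 1.08, adjusted p = 0.787), with both LPL replicate 1 libraries high and both replicate 2 libraries low. Of 7 proximal genes Lct and Slc46a1, the folate transporter (log2 3.63, SE 0.25, adjusted p = 0.000116), rose. Of 9 distal genes, Fgf15, the ileal hormone that curbs bile acid synthesis (log2 2.12, SE 0.40, adjusted p = 0.0067), and the bile acid exporter genes Slc51a and Slc51b rose (log2 1.09 and 1.38), and Guca2a and Hoxb9 fell (log2 -0.71 and -1.67). Fabp6, the ileal bile acid binding protein gene, was 225, 229, 87.98 and 215 CPM in the IEL libraries and 116, 82.6, 223 and 97.7 CPM in the LPL libraries (log2 0.56, SE 0.41, adjusted p = 0.32). Proximal genes thus gave 2 higher and 0 lower of 7, with 1 lower when WT LPL replicate 2 was left out, and distal genes 3 higher and 2 lower of 9. The butyrophilin-like genes, through which villus epithelium maintains gamma delta IEL, rose in 5 of 5 cases (median 1.20), with Btnl2 at 164 ± 34.3 CPM in IEL and 28.8 ± 3.10 CPM in LPL (log2 2.51, SE 0.18, adjusted p = 0.000129), Btnl1 and Btnl6 at log2 1.56 and 1.20, and Btnl4 at 0.35.

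Paneth cell genes of the crypt were higher in LPL. All 12 Paneth cell genes fell in IEL (median -1.56). Lyz1, the Paneth cell lysozyme (gene ID 17110, chromosome 10, 117287795 to 117292868), was 1094, 1215, 1361 and 869 CPM in the IEL libraries and 4785, 1367, 4358 and 2148 CPM in the LPL libraries (log2 -1.48, SE 0.41, adjusted p = 0.0302). Mmp7, which activates alpha-defensins, was 38.2, 46.3, 51.0 and 50.8 CPM in the IEL libraries and 324, 96.9, 367 and 121 CPM in the LPL libraries (log2 -2.29, SE 0.44, adjusted p = 0.00786), and the defensin gene Defa24 was 978 ± 230.3 CPM in IEL and 2866 ± 963 CPM in LPL (log2 -1.551, SE 0.26, adjusted p = 0.00432). The lectin gene Itln1 and the phospholipase gene Pla2g2a fell (log2 -1.51 and -2.30). Replicate 1 of WT and KO LPL held the highest levels of Lyz1, Mmp7, Defa22 and Pla2g2a. Defensin genes are near copies, and reads could be split between them. With WT LPL replicate 1 left out, the list gave 0 higher and 11 lower of 12, median -1.36.

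Goblet cell genes divided. Of 12 tested, 7 fell and 0 rose (median -0.86). Agr2, the disulfide isomerase needed for mucin folding, was 337, 259, 223 and 281 CPM in the IEL libraries and 968, 708, 1318 and 671 CPM in the LPL libraries (log2 -1.74, SE 0.25, adjusted p = 0.00247), and Atoh1, the factor that sets the secretory fate, was 24.6, 20.3, 19.6 and 25.4 CPM in the IEL libraries and 45.3, 41.7, 50.2 and 46.6 CPM in the LPL libraries (log2 -1.03, SE 0.12, adjusted p = 0.000951). Spdef, Galnt12, Spink4, Sytl2 and Retnlb fell (log2 -1.47, -1.12, -1.42, -0.63 and -2.79). The abundant products did not pass. Muc2, the gel-forming mucin, was 1079 ± 354 CPM in IEL and 1199 ± 141 CPM in LPL (log2 -0.15, SE 0.25, adjusted p = 0.657), and Tff3, Fcgbp, Zg16 and Clca1 had log2 differences of 0.23, 0.20, 0.53 and -0.70. Progenitor genes were lower in part, in a fit where 15.4% of all genes tested fell. Of 17 cell cycle genes 7 fell and all 17 were lower by sign (median -0.61), with the mitotic kinase gene Cdk1 at 25.8 ± 6.26 CPM in IEL and 49.0 ± 3.66 CPM in LPL (log2 -0.93, SE 0.17, adjusted p = 0.0065). The count of 7 was not stable. It was 1 without KO IEL replicate 2 or KO LPL replicate 2, 2 without WT IEL replicate 2 or KO LPL replicate 1, 3 without KO IEL replicate 1 or WT LPL replicate 2 and 11 without WT IEL replicate 1. It was 2 in the joint fit with the tissue libraries. In IEL the replicate 1 libraries held more of the proliferation antigen gene Mki67, at 281 and 202 CPM against 127 and 127, and it did not pass (log2 -0.73, SE 0.26, adjusted p = 0.0637). Of 11 crypt stem cell genes 3 fell, Sox9 (31.8 ± 2.86 CPM in IEL and 80.4 ± 10.48 CPM in LPL, log2 -1.33, SE 0.12, adjusted p = 0.000342), Lrig1 (log2 -0.78, SE 0.18, adjusted p = 0.0147) and Znrf3 (log2 -0.91, SE 0.27, adjusted p = 0.0393), with 1 lower when KO LPL replicate 2 was left out. Lgr5 and Olfm4, which mark the stem cells, did not pass (log2 -0.22 and -0.22).

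Tuft cell genes rose. Of 10 tested, 6 were called, all higher in IEL (median 2.24). Sh2d6, a signalling adaptor gene of tuft cells (gene ID 71130, chromosome 6, 72513641 to 72534206), was 7.996, 27.7, 23.3 and 53.2 CPM in the IEL libraries and 0.591, 1.31, 0.479 and 2.24 CPM in the LPL libraries (log2 4.48, SE 0.63, adjusted p = 0.002). Trpm5, the taste-pathway cation channel, was 8.09, 20.1, 17.01 and 34.8 CPM in the IEL libraries and 0.676, 2.82, 1.24 and 3.82 CPM in the LPL libraries (log2 3.15, SE 0.57, adjusted p = 0.00564), and Dclk1 was 6.57 ± 2.74 CPM in IEL and 0.779 ± 0.402 CPM in LPL (log2 3.02, SE 0.50, adjusted p = 0.00429). Ltc4s, which makes cysteinyl leukotrienes, rose by log2 2.69. Pou2f3, the factor that specifies tuft cells, was 1.76 ± 0.782 CPM in IEL and 0.943 ± 0.432 CPM in LPL and did not pass (log2 0.94, SE 0.36, adjusted p = 0.079). Of 14 enteroendocrine genes 2 rose, a share near the 15.7% of all genes tested that rose. They were Sct, the secretin gene (26.1 ± 3.80 CPM in IEL and 8.74 ± 0.994 CPM in LPL, log2 1.57, SE 0.16, adjusted p = 0.000504), and Gip (log2 1.04, SE 0.28, adjusted p = 0.0263). Chga, the granule protein that marks the lineage, did not pass (log2 0.22, SE 0.39, adjusted p = 0.682). Without WT LPL replicate 1 the tuft list gave 8 higher and 0 lower of 11, median 2.83 and the enteroendocrine list 4 higher and 0 lower of 14, median 0.59. Of the enteroendocrine genes 1 was higher without KO IEL replicate 1, WT LPL replicate 2 or KO LPL replicate 2, and leaving out WT LPL replicate 2 gave 1 higher and 1 lower of 14, median -0.02.

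By edgeR most pan-epithelial and junction genes did not pass, in a fit where 15.7% of all genes tested rose and 15.4% fell. DESeq2 called 1 higher and 5 lower of 11 pan-epithelial genes, and 2 higher and 4 lower of 12 junction genes. Of 11 pan-epithelial genes 1 rose, Vil1, the villin of the brush border (2233 ± 456 CPM in IEL and 776 ± 83.2 CPM in LPL, log2 1.51, SE 0.19, adjusted p = 0.00118), and Krt18 and Elf3 fell (log2 -0.74 and -0.56). The pan-epithelial count of lower genes was 0 without WT IEL replicate 2, KO IEL replicate 1 or KO LPL replicate 1, and 1 without WT IEL replicate 1, KO IEL replicate 2 or KO LPL replicate 2. Of 12 tight junction genes, Cldn15, a pore claudin of the villus, rose (log2 0.43, SE 0.12, adjusted p = 0.0332). Cldn4, a claudin that seals the junction, was 56.3, 53.6, 26.4 and 57.1 CPM in the IEL libraries and 226, 135.8, 249.8 and 159 CPM in the LPL libraries (log2 -2.004, SE 0.30, adjusted p = 0.00271), and Cldn2, the cation pore of the crypt, was 70.7 ± 27.0 CPM in IEL and 128 ± 5.76 CPM in LPL (log2 -0.87, SE 0.23, adjusted p = 0.0271). Cldn23 and F11r fell (log2 -1.22 and -0.29), and Tjp1, Tjp3 and Ocln had differences between -0.19 and 0.05 that did not pass. With 1 library left out, the 4 lower junction genes became 2, or 3 without WT IEL replicate 1 or WT LPL replicate 1, and the 1 higher gene became 0 except without WT IEL replicate 1 or WT LPL replicate 2.

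Stress and signalling genes were higher in LPL. Of 19 immediate early and heat shock genes 14 fell in IEL and 0 rose (median -1.053). Fosb, an AP-1 subunit induced by stimuli (gene ID 14282, chromosome 7, 19302696 to 19310118), was 627, 715, 707 and 573 CPM in the IEL libraries and 1603, 1667, 1699 and 1641 CPM in the LPL libraries (log2 -1.33, SE 0.13, adjusted p = 0.000503). Atf3, a stress-induced factor, was 503, 566, 422 and 436 CPM in the IEL libraries and 1346, 1267, 1531 and 1242 CPM in the LPL libraries (log2 -1.49, SE 0.15, adjusted p = 0.000464), and both genes varied little within a preparation. Nr4a1, Dusp1, Egr1 and Jun fell (log2 -1.92, -1.15, -1.053 and -0.96). Among heat shock genes Hsph1, Dnajb1 and Hsp90aa1 fell (log2 -1.47, -1.63 and -0.997), and Hspa1a and Hspa1b, near copies of each other, did not pass at log2 -1.32 and -1.22. These genes are known to respond within the time of tissue handling, and what part the preparation of the cells had was not tested. Genes of the unfolded protein response fell in 10 of 15 cases (median -0.83). Herpud1, which helps clear misfolded proteins, was 117, 167, 119.96 and 160.0 CPM in the IEL libraries and 683, 353, 488 and 342 CPM in the LPL libraries (log2 -1.72, SE 0.25, adjusted p = 0.00248), Ddit3, a death factor of this response, was 54.4 ± 10.501 CPM in IEL and 166 ± 60.3 CPM in LPL (log2 -1.60, SE 0.27, adjusted p = 0.00427), and the chaperone gene Hspa5 was 1301 ± 125 CPM in IEL and 2890.3 ± 405 CPM in LPL (log2 -1.15, SE 0.17, adjusted p = 0.00259). WT LPL replicate 1 was the highest for each of these 3, and without it the list gave 0 higher and 10 lower of 15, median -0.77. Plasma cells, Paneth cells and acinar cells are secretory cells that use these chaperones, and their lists were higher in LPL, as given above; their part in these values was not tested.

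Genes of energy metabolism went both ways. Of 15 glycolysis genes 7 rose, among them the enolase gene Eno1 (760.4 ± 118.9 CPM in IEL and 327 ± 39.2 CPM in LPL, log2 1.21, SE 0.14, adjusted p = 0.000871) and the glucose phosphate isomerase gene Gpi1 (log2 0.96). Hk2, a hexokinase, was 47.1, 30.9, 23.7 and 36.7 CPM in the IEL libraries and 158, 98.3, 161 and 86.4 CPM in the LPL libraries (log2 -1.87, SE 0.28, adjusted p = 0.0026), and Slc2a1, the GLUT1 transporter, was 21.7, 17.95, 17.98 and 21.2 CPM in the IEL libraries and 59.9, 47.7, 54.9 and 44.6 CPM in the LPL libraries (log2 -1.39, SE 0.13, adjusted p = 0.000406), both lower in IEL. Of 14 clock genes 3 rose, Tef, Npas2 and Dbp (log2 1.30, 0.78 and 2.39), where 15.7% of all genes tested rose. The core genes Arntl and Per2 did not pass (log2 -0.13 and -0.05). The clock list had 5 higher genes without WT LPL replicate 1.

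With all libraries in the fit, edgeR called 1 interferon response gene of the lists, Cxcl10. By edgeR 0 of 22 type I response genes were called (median 0.44), with 2 at an unadjusted p under 0.05, and DESeq2 called 2 higher and 1 lower. Oasl2, an antiviral gene, was 16.2, 76.1, 22.4 and 50.0 CPM in the IEL libraries and 16.98, 134.8, 16.5 and 7.12 CPM in the LPL libraries (log2 0.42, SE 0.87, adjusted p = 0.734). WT LPL replicate 2 was far above the other LPL libraries, as it was the highest LPL library for 21 of the 22 genes, and in IEL the replicate 2 libraries were above the replicate 1 libraries. Leaving out WT LPL replicate 2 gave 5 higher and 0 lower of 22, median 0.81, and leaving out WT IEL replicate 1 gave 5 higher and 0 lower of 22, median 0.82. The type I list gave 0 higher and 0 lower of 22, median 0.37 without WT LPL replicate 1, and 1 gene was lower without KO LPL replicate 2. Among 19 interferon gamma response genes Cxcl10, a chemokine that draws T cells, fell (1.31 ± 0.878 CPM in IEL and 8.75 ± 8.44 CPM in LPL, log2 -2.58, SE 0.76, adjusted p = 0.0361), and Gbp4, a GTPase, was 8.56, 31.4, 10.1 and 23.0 CPM in the IEL libraries and 14.02, 0.963, 1.53 and 1.45 CPM in the LPL libraries (log2 2.37, SE 0.88, adjusted p = 0.0728). Without WT LPL replicate 1 the gamma list gave 3 higher and 2 lower of 19, median 0.44, and DESeq2 called 3 higher and 2 lower. The 1 lower call was lost without WT IEL replicate 1, WT IEL replicate 2, KO IEL replicate 1 or KO LPL replicate 1, and 3 genes were higher without WT IEL replicate 1. Of the interleukin receptor genes beside lnc13, Il18rap was not tested, at 0.550 ± 0.352 CPM in IEL and 1.04 ± 1.62 CPM in LPL, and Il18r1 was 0.376, 1.82, 0.754 and 2.93 CPM in the IEL libraries and 11.5, 1.03, 1.053 and 1.52 CPM in the LPL libraries (log2 -1.02, SE 1.04, adjusted p = 0.474). This list gave 0 higher and 0 lower of 2, median 0.51 without WT LPL replicate 1, against a median of -1.18 with it.

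Whether the preparations differed alike in WT and KO mice was read from the same 8 libraries with 2 per group. Within WT 739 genes were called, 519 higher in IEL (4.01%) and 220 lower (1.70%), and within KO 1429, 936 higher (7.23%) and 493 lower (3.81%). Of these, 703 were called in both, each with the same sign. These counts were not stable when 1 library was left out: they fell without some libraries and rose without others. The WT count also fell without either KO IEL library, which does not enter the WT means. The 4 groups share 1 estimate of spread, and what part this had in the changes was not tested. All 4033 genes of the pooled comparison had the same sign in both genotypes, but they were picked by a fit over these same libraries. A gene with opposite signs in the genotypes could hardly pass that fit, so this count gives no separate support. The log2 differences of the 2 genotypes correlated across the 12950 genes at a Pearson r of 0.858, as a description, since genes are not independent and the genotypes share a scaling. The medians of the lists lay near each other for enterocyte genes (2.35 in WT and 2.71 in KO), Paneth cell genes (-1.74 in WT and -1.548 in KO) and exocrine pancreas genes (-9.83 in WT and -9.72 in KO). They lay apart for cytotoxic effectors (3.17 in WT and 5.48 in KO) and T cell receptor genes (1.70 in WT and 4.08 in KO), where WT LPL replicate 1 enters the WT value.

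The test of that difference itself, the interaction of preparation and genotype, called 0 genes by edgeR (0.00%), with 75 genes at an unadjusted p under 0.05 (0.579%). With no interaction in any gene, a calibrated test would give such a p to a share of genes near 0.05. The test was thus conservative in these libraries, and 0 calls do not show that the genotypes were alike. DESeq2 called 1 gene, Ccn1, a matrix protein induced by stretch and serum (log2 -1.02, KO minus WT, adjusted p = 0.0207). Ccn1 was 107, 114, 64.5 and 60.7 CPM in the IEL libraries and 482, 463, 567 and 534 CPM in the LPL libraries. It was lower in IEL in both genotypes (log2 -2.62, SE 0.22, adjusted p = 0.000259 over both), and the KO IEL libraries lay below the WT IEL libraries. Thbs1, a matrix protein named here after its values were seen, was 89.7, 60.2, 30.04 and 40.6 CPM in the IEL libraries and 790.4, 343, 542 and 412 CPM in the LPL libraries (log2 -3.33, SE 0.34, adjusted p = 0.000546), with the WT IEL libraries again above the KO IEL libraries and no interaction past the threshold (edgeR adjusted p = 1.00). For Cd3e the log2 difference was 3.72 in WT and 5.88 in KO, and for Gzmb 3.54 in WT and 7.13 in KO, with interaction SEs of 1.14 and 1.95, so differences of this size between genotypes could not be told from 0 for these genes.

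**Figure D4:**
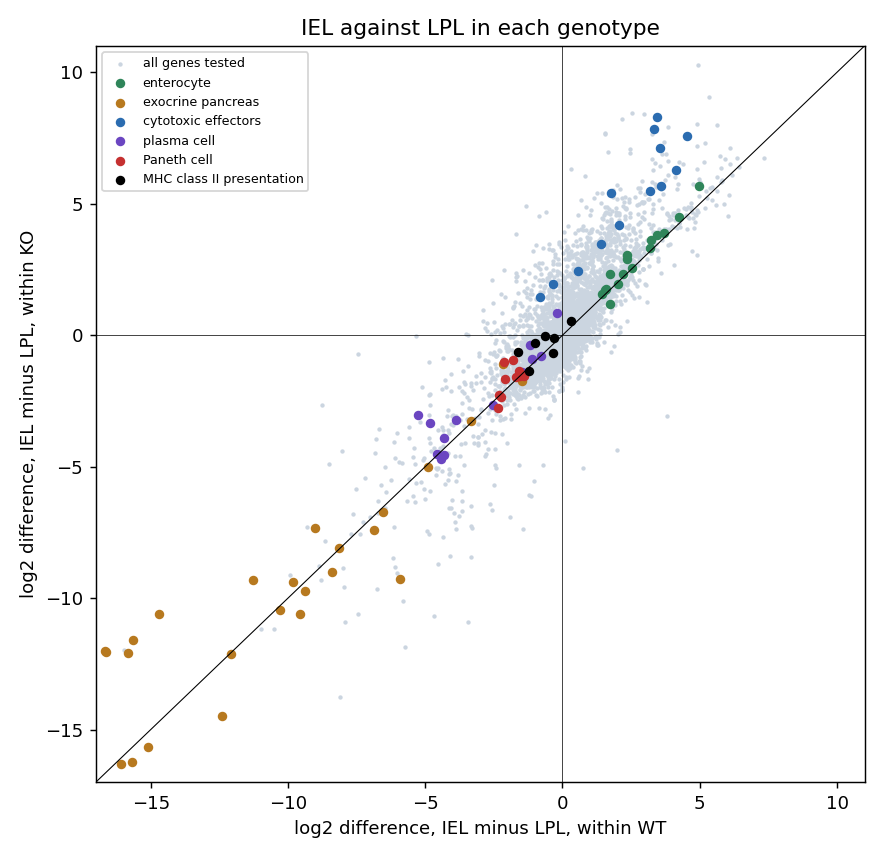
Log2 difference of IEL over LPL within KO (y axis) against that within WT (x axis) for 12950 tested genes (grey), with 6 lists in colour and the line of equality. Pancreas genes lie low and enterocyte genes high in both genotypes (Pearson r over all genes 0.858), and cytotoxic effector genes lie above the line, with medians of 3.17 in WT and 5.48 in KO.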

How the data were processed

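Poly(A) RNA from intraepithelial and lamina propria preparations of the small intestine was extracted with a column kit and made into libraries with the NEBNext Ultra II RNA kit, per the labels' protocols. The authors deposited raw read counts per Entrez gene ID, one table for each library; the values are whole numbers and are not normalized. The submitters' processing notes name TopHat, featureCounts, DESeq and mm10, while the count columns carry HISAT2 alignment names per the file headers, so the aligner is recorded in 2 ways. Whether counting used strand is not given in the sources used here, and reads of near-identical or overlapping genes may be split or shared. Symbols and coordinates come from RefSeq GRCm38.p6 (mm10); 25275 of 27179 IDs matched, with 99.083% of the reads of the 8 libraries.

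Genes were filtered by edgeR's filterByExpr with preparation as the group, which left 12950 genes. Counts were TMM scaled and tested with edgeR 4.0.16 (limma 3.58.1, R 4.3.3) by the quasi-likelihood test on preparation with genotype as a covariate; the comparisons within each genotype and the interaction came from a model of the 4 groups. P-values were adjusted by Benjamini-Hochberg over all genes tested, with a threshold of 0.05. DESeq2 1.42.0 was an alternative, as were its size factors, other filters, a joint fit with the tissue libraries, removal of pancreas or mitochondrial genes, replicate blocks and leaving out each library. Libraries held 10186522 to 12898125 reads in genes; floors of 3 reads and 95% exact intervals cover counting error only. The code was tested on simulated data.

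The 48 gene lists and the tests were chosen with earlier results of these data known. Some genes stand in several lists, so the list counts are not separate lines of evidence. The named genes are the 12 with the largest rise, the 12 with the largest fall and the 12 with the largest fall outside the pancreas list, among called genes of at least 5 CPM without overlap, leaving out predicted genes and receptor or antibody segments, and up to 4 members of each list with the smallest p, with defining markers and the Il18 receptor genes beside lnc13. Further list members were named after their values were seen, and some genes are not reported here. The sorted CD8 T cell tables and the lnc13 RAP-DNA-seq samples of the series were not used here.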

Additional observations from a re-analysis of the deposited data

Results flagged for a closer look

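For 30 of 478 sets of 4 libraries (the tested ones of the 248 genes named, in each preparation), 1 library lay apart from the other 3 by Dixon's criterion on log2(CPM + 1). By chance about 1 in 20 sets is flagged. Named genes that were not tested were not checked. A gene read in only 1 of the 4 libraries is always flagged by this criterion, whatever its level. The flags of Pnlip, Cela2a, Cpa1, Ctrb1, Reg2, Serpini2, Des and Cyp2c29 are of this kind and show few reads, not an outlier. Of the 30 flags, 12 were WT LPL replicate 1. It was the highest LPL library for the receptor and adhesion genes Cd2 (13.8 CPM), Cxcr3 (3.38), Itgax (27.6), Itgb7 (44.9), Klrb1c (2.11), Il18r1 (11.5) and Pecam1 (20.4), for Ctla4 (80.3), for the effector genes Fasl (3.21) and Prf1 (4.56) and for Gbp4 (14.02), and it was the lowest for Epcam (1031 CPM). These values and that library's place on the second principal component come from the same counts, so neither gives separate support for the other. What part the makeup of the preparation had was not tested.

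In KO IEL replicate 2 the pancreas genes Pnlip (0.586 CPM), Cela2a (0.586), Cpa1 (0.391) and Ctrb1 (0.293) were read where the other 3 IEL libraries had no read, and the secretory genes Spdef (50.7 CPM) and Spink4 (421 CPM) and the tuft cell gene Pou2f3 (2.93 CPM) were highest, while Reg3a was lowest (86.6 CPM). In KO IEL replicate 1 Mcpt1 was high (109 CPM) and Cldn4 (26.4 CPM), Fabp6 (87.98 CPM) and Fcgbp (6606 CPM) were low. WT IEL replicate 1 was low in Alpi (738 CPM) and held the only read of Des in IEL (0.0941 CPM). WT IEL replicate 2 alone among IEL libraries had reads of Reg2 (0.534 CPM) and Serpini2 (0.107 CPM), KO LPL replicate 2 alone among LPL libraries had reads of Cyp2c29 (0.198 CPM), and KO LPL replicate 1 was high in Klk1 (355 CPM).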

How the results depend on the processing

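The total of 4033 genes stayed within 1.5 times under the other scalings, filters and gene removals run (3806 to 4042). DESeq2, another test, called 4630 genes, and 3966 of the 4033 were among them. The joint fit with the tissue libraries called 2932 genes, of which 2786 were shared with the main fit. It gave 1207 genes lower in IEL, where the main value is 2000. Leaving out 1 library gave 2328 to 4276 genes in all, 1299 to 2342 higher and 930 to 1935 lower in IEL. The total moved by over 1.5 times without WT IEL replicate 2 (2328), KO LPL replicate 1 (2430), KO IEL replicate 2 (2490) and KO IEL replicate 1 (2621), and the count of lower genes also without KO LPL replicate 2 (1236). Without KO LPL replicate 1 the share of calls higher in IEL was 61.7%, against 50.4% with all libraries. Within WT, DESeq2 called 1488 genes, the fit of all genes with a read 1188, and fits that left out 1 library 125 to 986. Within KO, DESeq2 called 2481, and leaving out 1 library gave 151 to 2137. For the interaction DESeq2 called 1 gene and the edgeR alternatives 0. With a replicate block by genotype and number, 3096 genes were called in all, 172 within WT and 397 within KO, and with a block by number alone 4119; same-numbered IEL and LPL libraries did not deviate together (correlation of deviations -0.432 in WT and -0.0665 in KO), so the numbers were not taken as a pairing. On the WT libraries alone, 36 genes were higher and 26 lower without a block, 0 and 0 with same numbers paired, and 238 and 93 with the numbers crossed, an alternative chosen after seeing the data, as was the removal of mitochondrial genes (4009). Among the 192 genes compared across settings, 115 were called in the main fit and in every fit that left out 1 library. The 192 also hold genes that the main fit did not call, such as Epcam and Itgb7. The 115 set against 192 is thus not the share of calls that were kept. Fits that leave a group with 1 library assume that it varies like the other groups. The cause of these changes was not tested. At this depth, genes of scarce cell types stayed below the level for testing.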

Other observations

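Some genes of cholesterol synthesis are given here as single values, since they were chosen after these were seen and form no fixed list. Hmgcs1, the synthase at the start of the pathway, was 208, 228, 213 and 203 CPM in the IEL libraries and 366, 337, 384 and 288 CPM in the LPL libraries, and the groups did not overlap (log2 -0.69, SE 0.11, adjusted p = 0.00409, by edgeR). Idi1, an isomerase of the pathway, was 35.2 ± 3.45 CPM in IEL and 66.2 ± 5.76 CPM in LPL (log2 -0.91, SE 0.11, adjusted p = 0.00104), and Cyp51, which removes a methyl group from lanosterol, was 102 ± 5.22 CPM in IEL and 174 ± 22.2 CPM in LPL (log2 -0.77, SE 0.11, adjusted p = 0.00227). The pathway genes Mvk, Mvd, Fdps, Fdft1, Sqle and Lss and the sterol sensor gene Insig1 fell in IEL as well (log2 -0.59, -0.47, -0.56, -0.58, -0.68, -0.64 and -0.94). Dhcr7, the last enzyme of the pathway, and Srebf2, which encodes the transcription factor of these genes, did not pass (log2 -0.02, SE 0.13, adjusted p = 0.914 and log2 -0.23, SE 0.11, adjusted p = 0.131).

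Smaller lists had few tested genes. Cidec, a lipid droplet gene listed for adipocytes that absorptive enterocytes also express, rose (45.997 ± 14.4 CPM in IEL and 13.6 ± 1.43 CPM in LPL, log2 1.75, SE 0.25, adjusted p = 0.00208). Ttr, the transthyretin gene listed for hepatocytes, fell (2.56 ± 0.752 CPM in IEL and 5.45 ± 0.509 CPM in LPL, log2 -1.11, SE 0.27, adjusted p = 0.0192), and Aqp8, a water channel listed for colon, rose (18.2 ± 7.84 CPM in IEL and 1.23 ± 0.668 CPM in LPL, log2 3.91, SE 0.52, adjusted p = 0.00159). Of 2 tested genes of enteric neurons and glia, 1 of neutrophils and 2 interleukin receptor genes beside lnc13, 0 were called by edgeR or DESeq2 and 0 had an unadjusted p under 0.05. The neutrophil list gave 1 higher and 0 lower of 1, median 4.02 without WT LPL replicate 1, against a median of 0.45 with it, and its median was -0.09 without KO LPL replicate 2. The list of neurons and glia gave 0 higher and 1 lower of 2, median -0.28 without WT LPL replicate 2. Of the hepatocyte genes 0 were lower without WT IEL replicate 2, KO LPL replicate 1 or KO LPL replicate 2, and 1 was higher without KO IEL replicate 2 or any 1 LPL library.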
